A study of Mus musculus with 2 samples.

Results

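Dermal γδT cells were 102 of the 5376 cell barcodes (1.90%) in a single-cell library from the dermis of psoriasiform mouse skin, and 102 of 10634 barcodes when the epidermal library was added. Wild-type C57BL/6 mice aged 10 weeks had received imiquimod (IMQ), a Toll-like receptor agonist that provokes psoriasis-like inflammation, on the ear for 5 days. Dermis and epidermis were digested apart, and 1 library of 3′ transcript ends was made from each tissue. By the study's methods the dermal cells were sorted as live and CD45+, a marker of leukocytes, and the epidermal cells as live only, so shares of the dermal library are shares of sorted cells. Every cell compared below was IMQ-treated, no untreated skin was analysed here, and the labels do not give the number of mice. With 1 library per tissue no test between groups of cells was possible. Each ratio therefore describes these libraries, and its exact 95% interval covers counting error only.

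The members were chosen by their own counts of unique molecular identifiers (UMIs), each UMI standing for 1 captured transcript. A member had 200 to 5000 genes, at most 10% mitochondrial UMIs, at least 2 UMIs of *Trdc*, the constant gene of the δ receptor chain, and at least 2 UMIs summed over *Cd3d*, *Cd3e* and *Cd3g*, which encode the CD3 subunits. Cells with 20 or more UMIs of the complement genes *C1qa*, *C1qb* and *C1qc* per 10000 were left out, since macrophages make them. These values selected the cells and are given as a description. *Trdc* ran from 2 to 79 UMIs per member with a median of 9, the CD3 genes from 2 to 97 with a median of 19, and C1q from 0 to 17.9 per 10000 with a median of 1.74. At the edge of the *Trdc* threshold, 13 cells had exactly 2 UMIs, and *Il17f* was found in 7 and *Trac* in 2 of them. Just outside, 18 cells had 1 *Trdc* UMI, with *Il17f* in 10 and *Trac*, the α chain constant gene, in 6. The C1q limit left out 5 cells, of which 4 held a *Tcrg-C1* UMI.

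γδT cells carry a T cell receptor built from a γ and a δ chain. Mouse dermis holds innate-like γδT cells that are programmed in the thymus to make interleukin (IL)-17 and answer IL-23 and IL-1 quickly, without prior priming. Epidermis holds another population, the dendritic epidermal T cells, and 2 related scavenger receptors, *Cd163l1* (Scart1) and *5830411N06Rik* (Scart2), are known to mark different subsets of the IL-17-producing cells.

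The 102 members held 1227281 UMIs, with 1973 to 47962 UMIs per cell and a median of 10257.5. Median depth was 7042 UMIs in 132 other dermal T cells (at least 2 UMIs of *Trac*, *Trbc1* and *Trbc2*, none of *Trdc* or *Foxp3*), 6032 in 53 dermal T cells with a *Foxp3* UMI, 8978 in 830 dermal macrophages that served as background, and 2371.5 in 464 epidermal γδT cells taken by the same gate. The libraries shared 45 barcodes, none of them a member. A doublet caller marked 0 dermal and 7 epidermal cells with its automatic threshold. This was taken as a failed call and no cell was removed. A rate-based removal would drop 15 of the 102 members and 10 of the 464 epidermal γδT cells.

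The label was checked against the 5 marker genes. All 5 were found in at least 25% of the members, but *Trdc* and *Cd3e* belong to the gate and say nothing further. *Cd163l1* was found in 50% of the members at 280 CPM (its UMIs summed over the cells and divided by all their UMIs, scaled to counts per 1000000), *5830411N06Rik* in 41.2% at 232 CPM, and *Blk*, a Src-family kinase of IL-17-producing γδT cells, in 69.6% at 167 CPM. In macrophages the same genes were found in 1.57%, 1.45% and 1.20% of cells. A UMI of a γ constant gene was present in 91 members (89.2%). *Cd8a* and *Cd8b1* were at 0, and *Cd4*, the helper T cell coreceptor, had 3 UMIs in all. *Trac* was found in 20 members at 26.1 CPM. The β chain constant genes were found in most members, *Trbc2* in 88.2% at 493 CPM and *Trbc1* in 71.6% at 345 CPM, against 1027 and 551 CPM in the other dermal T cells. The 7 αβT cell markers summed to 867 CPM in members and 1937 CPM in the other dermal T cells. Of 5 measured, 4 were over 2-fold lower in members, all but *Trbc1*. The other dermal T cells were chosen by *Trac*, *Trbc1* and *Trbc2*, so their higher level of these genes was partly set by that choice and does not check the label. The 3 markers outside the gate and the γ constant genes fitted the label, and RNA of the β constant genes was present beside them.

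RNA of other dermal cells was also present in the members. The 9 macrophage markers summed to 1263 CPM, led by *Pf4* at 483 CPM, where macrophages had 15371 CPM. The 6 monocyte markers summed to 1525 CPM and were led by *Lyz2*, found in 99.0% of members, the 6 neutrophil markers to 3964 CPM (*S100a8* 1955 CPM), the 7 dendritic cell markers to 2627 CPM (*Cd74* 1151 CPM, *Cd207* at 0) and the 6 fibroblast markers to 1203 CPM (*Dcn* 796 CPM). Keratinocyte markers summed to 67.6 CPM with 4 of 8 at 0, those of natural killer cells to 131 CPM with *Klrb1c*, *Klra4* and *Eomes* at 0, those of mast cells and basophils to 88.0 CPM, those of B cells to 18.7 CPM and those of endothelium to 26.9 CPM. The other dermal T cells had 1067, 1379, 4972, 1978 and 1817 CPM of the macrophage, monocyte, neutrophil, dendritic cell and fibroblast markers. A CD45+ sort should leave out fibroblasts and keratinocytes. The part of such RNA in the results below was not tested.

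The type 17 cytokines were not used to choose the cells, and most members carried them. IL-17A and IL-17F act on keratinocytes and fibroblasts to draw neutrophils, and IL-22 drives epidermal thickening. At least 1 UMI of *Il17a*, *Il17f* or *Il22* was found in 87 of 102 members (85.3%).

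*Il17f* was the cytokine found in most members, 73 cells or 71.6% (interval 61.8 to 80.1%), with 0 to 675 UMIs per cell and a median of 7. *Il22* was found in 69 cells or 67.6% (57.7 to 76.6%), with 0 to 487 UMIs and a median of 3. *Il17a* was found in 39 cells or 38.2% (28.8 to 48.4%), with 0 to 739 UMIs and a median of 0. Transcripts of all 3 genes were spread very unevenly among the cells. The 5 richest cells held 78.7% of 1834 *Il17a* UMIs, 49.6% of 4372 *Il17f* UMIs and 47.9% of 2845 *Il22* UMIs. Pooled over the members, CPM was 1494 for *Il17a* (1427 to 1564), 3562 for *Il17f* (3458 to 3670) and 2318 for *Il22* (2234 to 2405). Without the richest cell, *Il17a* stood at 900.4 CPM, so 1 cell with 739 UMIs held much of its level.

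Some macrophages, which should not make these cytokines, also had a UMI of them, namely 8.07% for *Il17a*, 8.19% for *Il17f* and 16.9% for *Il22*, at 7.97, 8.43 and 18.0 CPM. The source of this RNA was not tested. With every cell thinned to 1000 UMIs, the shares were 17.6%, 51.7% and 42.0% in members against 0.990%, 0.872% and 2.31% in macrophages, of which 20 shallower cells were left out. The share of members lay above this background for each gene, before and after thinning. *Ltb*, lymphotoxin β, was found in 65.7% of members at 242 CPM. *Csf2*, encoding the growth factor GM-CSF, was found in 21.6% of members at 82.3 CPM, *Areg*, an epidermal growth factor receptor ligand, in 20.6% at 174 CPM with 82.2% of its UMIs in 5 cells, and *Ifng*, the type 1 cytokine, in 4 members with 4 UMIs. *Iltifb*, a near-identical neighbour of *Il22* whose reads the counting may have split, had 15 UMIs. *Ltb*, *Csf2* and *Areg* were not particular to the members. They stood at 265, 89.0 and 202 CPM in the other dermal T cells and 487, 2.31 and 143 CPM in the *Foxp3* cells.

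**Figure D1:**
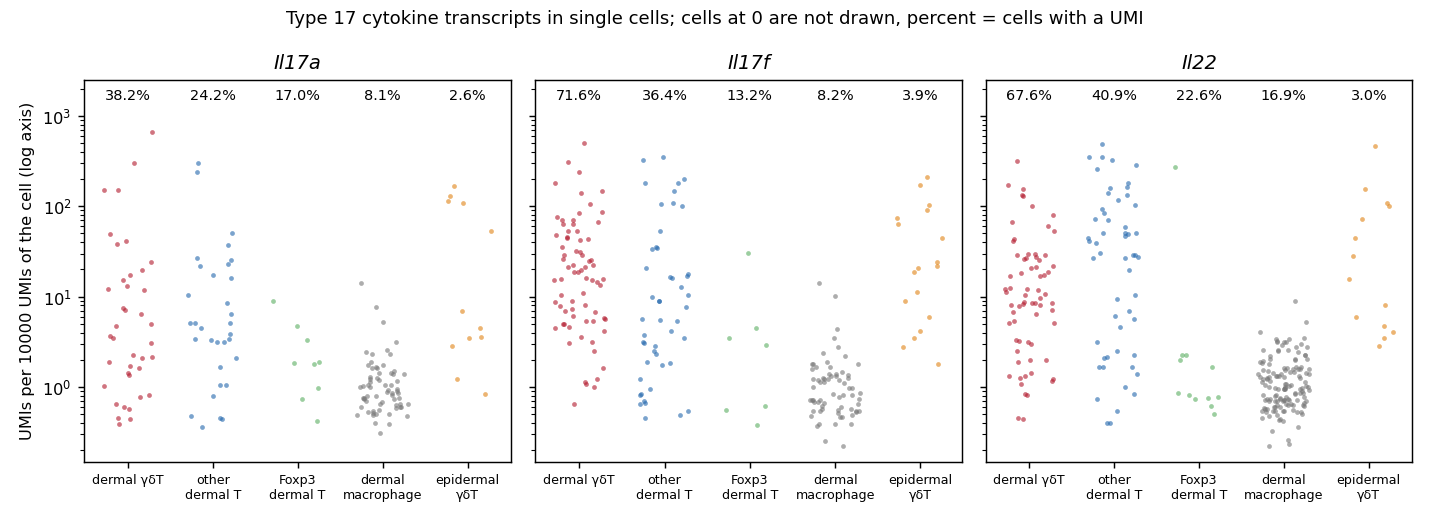
UMIs of *Il17a*, *Il17f* and *Il22* per 10000 UMIs of each cell (log axis) in 5 groups of cells; each dot is a cell with at least 1 UMI, cells at 0 are not drawn, and the percentage above each group is its share of cells with a UMI. The highest dots of dermal γδT cells come from cells with 739, 675 and 487 UMIs of the 3 genes, while no macrophage, the background, had more than 3.

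The cytokines were often found together. All 3 were detected in 29 members, *Il17f* with *Il22* but without *Il17a* in 28, and *Il17f* alone in 11. *Il17a* was seldom seen without *Il17f*, in 5 of its 39 cells. *Il22* alone was found in 9 members, and none of the 3 in 15, whose median depth was 5984 UMIs against 11031 in the 87 others.

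The members made up 2.16% of the 4721 dermal cells within the limits on genes and mitochondria. They held 52.5% of the *Il17a* UMIs of these cells (50.8 to 54.2%), 54.97% of *Il17f* (53.9 to 56.1%) and 29.1% of *Il22* (28.2 to 30.1%). The other dermal T cells held 35.4%, 33.4% and 55.2%, so *Il22* had its larger share outside the gate. Single cells weighed on these shares. Of the 3494 *Il17a* UMIs, 739 came from 1 member and 519 from 1 other dermal T cell. The intervals do not cover such spread among cells.

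*Il17a* (ENSMUSG00000025929) lies on chromosome 1 from 20730905 to 20734496 on the plus strand and *Il17f* (ENSMUSG00000041872) close by, from 20777146 to 20790617 on the minus strand, in the GENCODE M21 annotation of GRCm38. *Il22* (ENSMUSG00000074695) is on chromosome 10 from 118204942 to 118210047. The bases before the starts of *Il17a* and *Il17f* are shown because these neighbouring genes were detected together. They come from RefSeq on GRCm38.p6, at chr1:20730655-20730904 on the plus and chr1:20784271-20784520 on the minus strand, and run 5′ to 3′ along each gene. The RefSeq start of *Il17f* differs from the outer end of the GENCODE gene.
Il17a: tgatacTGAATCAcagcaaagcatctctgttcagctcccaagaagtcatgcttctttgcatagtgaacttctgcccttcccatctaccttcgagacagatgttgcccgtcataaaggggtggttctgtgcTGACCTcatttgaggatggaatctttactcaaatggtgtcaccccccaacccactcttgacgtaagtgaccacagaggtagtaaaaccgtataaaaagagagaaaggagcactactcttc
Il17f: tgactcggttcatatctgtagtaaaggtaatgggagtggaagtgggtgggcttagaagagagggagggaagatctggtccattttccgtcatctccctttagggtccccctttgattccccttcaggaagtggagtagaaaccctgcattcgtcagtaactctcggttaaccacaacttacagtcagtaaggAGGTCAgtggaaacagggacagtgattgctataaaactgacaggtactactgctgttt

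Capitals mark matches, on either strand, to AGGTCA, the half-site of nuclear receptors, and to TGANTCA. The latter is a loose form of the site of AP-1 and BATF dimers, with any base at N. AGGTCA lay at position -120 from the start of *Il17a*, on the opposite strand and so read TGACCT, and at -58 from that of *Il17f*. TGANTCA lay at -244 from the start of *Il17a*, where it read TGAATCA, a match to the loose form only. The matches did not overlap, and neither motif, nor TTCNNNGAA, the STAT site, was found for *Il22*, *Cd163l1* or *Ramp1*. AGGTCA was also found for *Actn2* at -170 and for *5830411N06Rik*, which has several RefSeq starts, at -238 from the first of them. In windows of the same span, 250 bases before to 50 after each start, AGGTCA was found in 16.3%, TGANTCA in 7.81% and TTCNNNGAA in 8.30% of 32851 RefSeq promoters. A match describes the letters and not binding.

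The comparison with the other dermal T cells asked which genes set dermal γδT cells apart within the same library. Among genes measured, meaning 20 or more UMIs over both groups, 2.68% of 7117 were over 2-fold higher and 3.67% over 2-fold lower in γδT cells, on a scale of log2 CPM ratio with 0.5 UMI added. With cells weighted equally, by the mean of per-cell CPM, the shares were 5.55% and 6.62% of the same genes, and without the highest doublet scores 2.28% and 6.02% of 6494. List counts under these settings are to be read against these shares. *Cd163l1* (ENSMUSG00000025461) stood highest by the naming rule. It had 344 UMIs in γδT cells and 6 in the other T cells, 56.2-fold higher (25.5 to 154). The γ constant genes *Tcrg-C1*, at 309 against 59.0 CPM (5.23-fold, 4.05 to 6.84), and *Tcrg-C4* (4.16-fold) came next, and *Tcrg-C2* was 2.67-fold higher. Some of these related genes may share reads, so the split between them is uncertain.

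*Cd7*, a lymphocyte surface receptor, was 3.71-fold higher (2.92 to 4.75), although it was found in 27.5% of γδT and 30.3% of other T cells. *5830411N06Rik* was 2.79-fold (2.22 to 3.54) and *Gstp1*, a glutathione transferase, 2.49-fold higher (2.16 to 2.87). *Gm26614*, *Fam129b* and *Cinp* were 3.67-fold, 3.35-fold and 2.63-fold higher. Each of these 10 intervals lay above 1, and that of *Cinp* came closest with a lower bound of 1.53.

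The genes that stood lowest in γδT cells were mostly surface molecules of conventional T cells. *Cd28*, the main costimulatory receptor for naive αβT cells, had 6 UMIs in γδT cells and 146 in the other T cells, 24.8-fold lower (11.1 to 68.8). *Tnfrsf4*, encoding OX40, was 17.6-fold lower (11.6 to 28.1), and *Cd5*, an inhibitor of receptor signalling, 17.3-fold lower (6.47 to 65.5). *Cd6*, related to *Cd5*, was 8.67-fold and *Cd2*, an adhesion receptor, 7.07-fold lower. *Lck*, the kinase that starts αβ receptor signalling, had 29.3 against 171 CPM (5.84-fold lower, 4.08 to 8.57). *Ctla4*, an inhibitory receptor, was 4.69-fold lower. *Ms4a4b*, *Gimap4* and *Gimap6*, members of families with similar copies, were 9.24-fold, 9.07-fold and 5.38-fold lower. *Thy1*, a pan-T-cell surface protein, stood at 658 against 654 CPM.

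**Figure D2:**
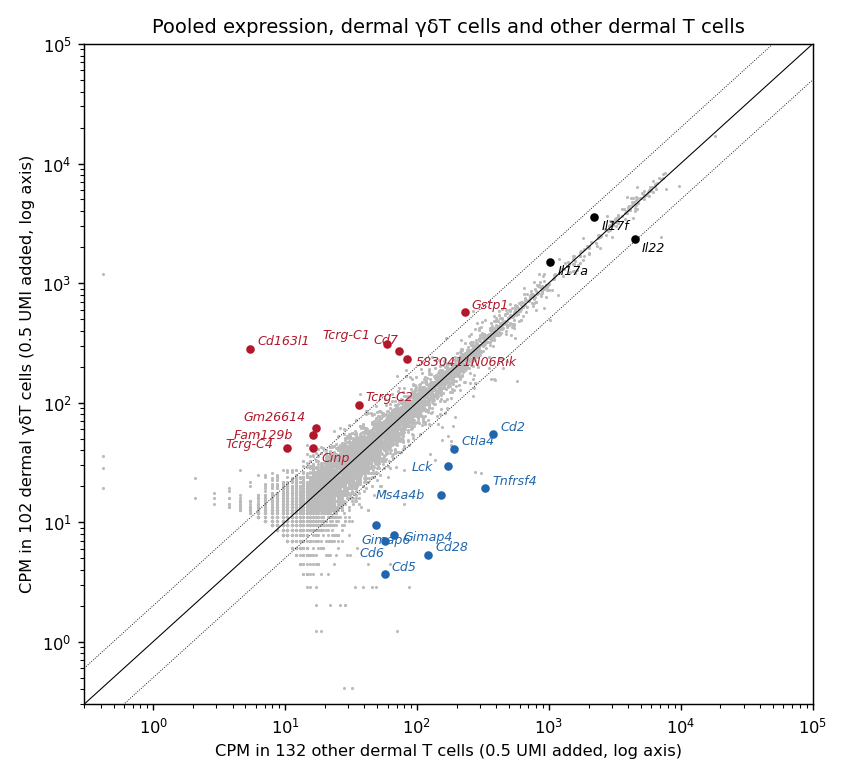
Pooled CPM of each gene with at least 20 UMIs in 102 dermal γδT cells against 132 other dermal T cells, 0.5 UMI added, log axes; the solid line marks equal levels and the dotted lines 2-fold. Red and blue dots are the 10 highest and 10 lowest genes by the naming rule, black dots the cytokines, and the dot at the far left near 1200 CPM is the gate gene *Trdc*.

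The other dermal T cells were not free of γδ receptor RNA. Of the 132 cells, 41 (31.1%) carried a γ constant UMI and 97 a *Trac* UMI. The 27 cells with both held 95.1% of the group's *Il17a*, 80.5% of its *Il17f* and 66.7% of its *Il22* UMIs, and *5830411N06Rik* was found in 10 of them and *Blk* in 20. The 14 cells with a γ constant UMI but no *Trac* held a further 11.7% of *Il22*. In contrast, the 70 cells with *Trac* and no γ constant UMI had 43.8 CPM of *Il17a*, 482 of *Il17f* and 2182.3 of *Il22*. A few cells held much of this RNA, and *Il17a* was found in 15 of the 27 cells. Over all 132 cells, the 5 richest held 87.3% of the *Il17a*, 69.4% of the *Il17f* and 46.4% of the *Il22* UMIs. Median depth was 15973 UMIs in the 27 cells and 5805 in the 70, and deeper cells have more chance to show a rare UMI of any gene.

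These 70 cells, chosen after the constant genes had been seen, were set beside the γδT cells as a second comparator. Of 6150 genes measured, 5.77% were over 2-fold higher and 6.5% over 2-fold lower in γδT cells. Markers of other cells stood apart too, with 3 of 5 fibroblast, 3 of 6 neutrophil and 3 of 6 monocyte markers lower and none of them higher. Fibroblast and neutrophil markers summed to 2435 and 6936 CPM in the 70 cells. The part of such RNA in this comparison was not tested. *Il17a* was 34.1-fold (22.4 to 54.5) and *Cd163l1* 46.9-fold higher (15.9 to 228). The ratio of *Il17a* rests in part on 1 member, without which the members stood at 900.4 CPM against 43.8 CPM in the 70 cells. *Tcrg-C1*, *Tcrg-C2* and *Tcrg-C4* had no UMI in the 70 cells by their choice. *Klrg1*, an inhibitory lectin of differentiated T cells, was 46.5-fold (15.1 to 232), *Tnfrsf4* 39.8-fold, *Cd28* 40.8-fold, *Cd4* 41.6-fold and *Cd5* 34.2-fold lower. *Il22* was at 2318 CPM in γδT cells and 2182.3 in the 70 cells, but it was found in 67.6% of the former and 22.9% of the latter, or 42.0% and 15.5% with cells thinned to 1000 UMIs. In the 70 cells, 5 cells held 78.0% of its UMIs.

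Gene lists were described by their counts. In the list of costimulatory and inhibitory receptors, 12 of 20 measured genes were over 2-fold lower and 1 higher in γδT cells against the other dermal T cells, with a median log2 ratio of -1.82 where that of all genes was -0.03. Against the 70 cells it was 12 of 19 lower, 1 higher and a median of -2.25. Besides the genes above, *Tnfrsf18* (GITR) stood at -1.93, *Icos* at -1.23, *Nt5e* at -1.71, *Cd27* at -3.26 and *Cd40lg* at -3.94 on the log2 scale. The gene of the list that was higher was *Pdcd1*, encoding the inhibitory receptor PD-1, with 79 against 36 UMIs (log2 ratio 1.09). *Ly6a*, the most abundant gene of the list, had 2400 against 1807 CPM. This list gave 13 genes lower with cells weighted equally and 11 without the highest doublet scores.

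**Figure D3:**
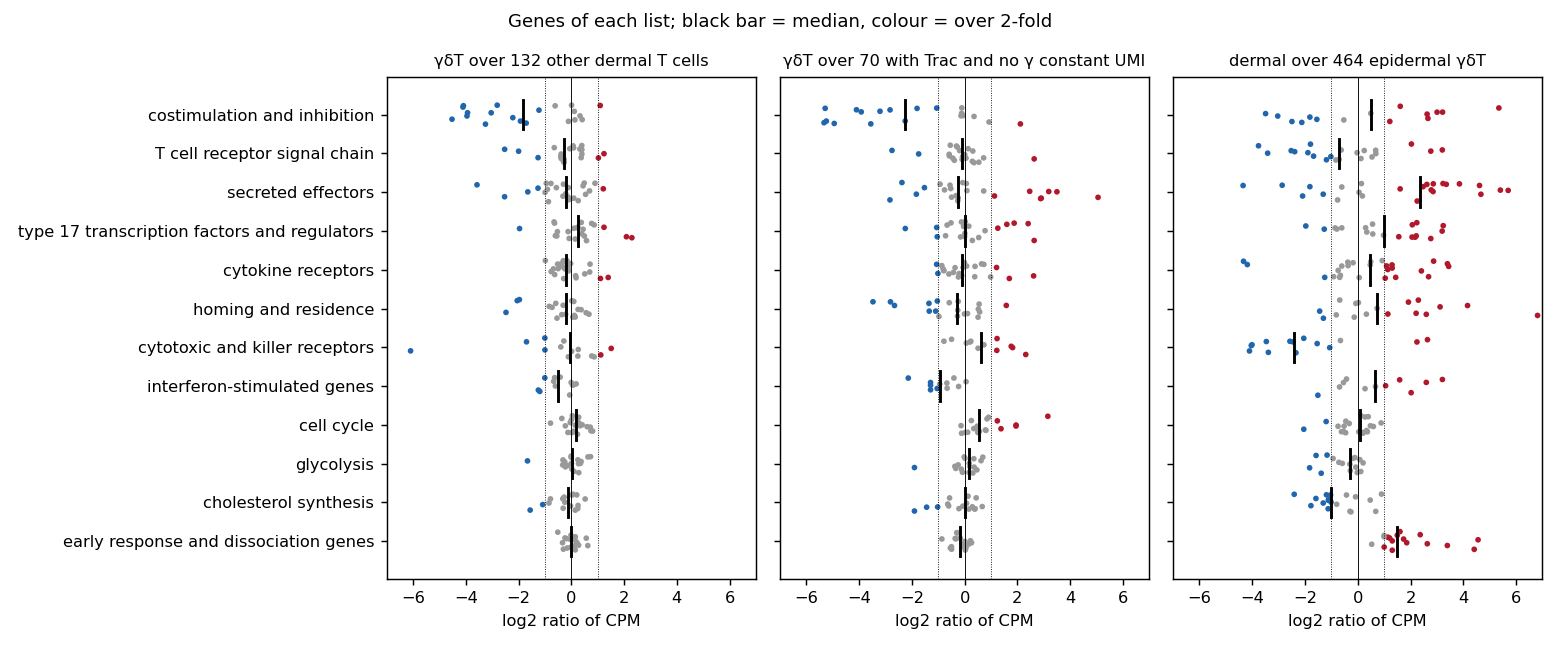
Log2 ratio of CPM for each measured gene of 12 lists in dermal γδT cells over 3 comparators, one per panel; dots are genes, red and blue over 2-fold higher and lower, and black bars the list medians. The costimulation list has its median at -1.82 and -2.25 in the panels on dermal T cells.

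In the list of the T cell receptor signal chain, 2 of 22 genes were higher, *Blk* (log2 1.24) and *Cd247* (1.02), the ζ chain, and 3 were lower, *Lck*, *Txk* and *Nfatc1*. *Lat*, the adaptor below the receptor, stood at 543 against 566 CPM. Of 25 secreted effectors, 1 was over 2-fold higher, *Tnfsf11* (RANKL, 29 against 12 UMIs), and 4 were lower, *Ccl5*, *Ifng*, *Tnfsf8* and *Iltifb*. With cells weighted equally 3 were higher and 6 lower, and without the highest doublet scores 0 of 24 were higher and 9 lower. *Ccl5*, a chemokine of cytotoxic and memory T cells, had 31 against 368 UMIs. *Il17f* was at log2 0.69, *Il17a* at 0.54 and *Il22* at -0.95. Against the 70 cells 7 of 23 effectors were higher and 4 lower (*Il10*, *Tnfsf8*, *Osm* and *Ccl5*), with a median log2 ratio of -0.24. *Il17a* led the higher genes, with *Il13*, *Xcl1* and *Csf2* among them, but *Il13* and *Xcl1* had 41 and 33 UMIs in 5.88% and 4.90% of the members.

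Transcription factors of type 17 cells were not generally higher than in the other dermal T cells. Of 22 measured, 3 were over 2-fold higher, *Batf3* (22 against 4 UMIs), *Sox13* (19 against 4) and *Blk*, which the list also holds, and *Tox2* was lower. *Sox13*, a factor needed by thymic precursors of IL-17-producing γδT cells, was found in 18 members (17.6%) and 2.27% of other dermal T cells. *Maf*, a factor of IL-17-producing T cells, had 173 UMIs in 70 members. It stood at 141 CPM in members, 121 in the other dermal T cells, 143 in the *Foxp3* cells and 236 in macrophages. *Id2*, the most abundant, stood at 967 against 812 CPM. Against the 70 cells 5 of 22 genes of this list were higher and 3 lower, and against the *Foxp3* cells 4 of 20 were higher and 6 lower. Against the epidermal γδT cells 9 of 19 were higher and 2 lower, where 8.51% of all genes were higher. Of 8 factors of other T cell lineages none was higher than in the other dermal T cells and *Ikzf2*, encoding Helios, was lower (63.6 against 186 CPM).

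Among 25 cytokine receptors 2 were higher and none lower by over 2-fold, but 3 were lower with cells weighted equally and 2 of 24 without the highest doublet scores. *Il1r1*, the IL-1 receptor, had 51 UMIs in 33 members (32.4%) against 23 UMIs (2.17-fold, 1.30 to 3.73), and *Il10ra* had 25 against 9. *Il23r*, the IL-23 receptor subunit, had 34 UMIs in 23 members against 48 in the other T cells, at log2 -0.52, and was found in 0.120% of macrophages. *Ifngr1* was the most abundant, at 198 against 226 CPM. *Il7r*, *Il18r1* and *Il2ra* were found in 51.0%, 56.9% and 50% of members.

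Of 19 homing and residence genes, none was higher and 3 were lower, among them *Cxcr3* and *S1pr1*, and with cells weighted equally 1 was higher and 6 were lower. These receptors guide T cells to inflamed tissue and out of tissue, and had 6 and 7 UMIs in γδT cells against 35 and 30. *Cxcr6*, a receptor of tissue-resident lymphocytes, was found in 81.4% of members at 486 against 329 CPM. *Ccr2* was found in 74.5% at 222 against 205 CPM, and *Ccr6*, which binds CCL20, in 40.2% at 83.9 against 64.9 CPM. In the *Foxp3* cells *Ccr2* was at 270 and *Ccr6* at 50.8 CPM. The killer receptor and cytotoxic list had 2 of 14 genes higher, *Klrk1* (NKG2D, 142 against 64 UMIs) and *Klrb1b*, and 4 lower, with *Klra4* at 0 in γδT cells. With cells weighted equally 4 were higher and 3 lower. The balance turned with the comparator, since 5 of 12 were higher and 0 lower against the 70 cells, and 6 of 12 higher and 1 lower against the *Foxp3* cells. *Gzmb*, granzyme B, had 768 UMIs in members, of which 378 came from 1 cell. It stood at 626 CPM in members, 677 in the other dermal T cells and 1272 in the *Foxp3* cells.

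None of 20 cell cycle genes and none of 17 early response genes passed 2-fold, although 2 cell cycle genes were higher with cells weighted equally. Against the 70 cells 5 of 19 cell cycle genes were higher and 0 lower (median log2 ratio 0.56), and against the *Foxp3* cells 4 of 19 were higher and 0 lower. The heat shock gene *Hspa1a*, known to be induced when tissue is dissociated, stood at 6165 against 7776 CPM. Of 17 early response genes, 4 were higher and 0 lower against the *Foxp3* cells (median log2 ratio 0.39), where 5.87% of all genes were higher. None of the 17 passed 2-fold against the 70 cells. Against the other dermal T cells, 1 of 18 glycolysis genes was lower (*Slc2a3*), and *Gapdh* had 2001 against 2014 CPM. Of 8 lipid genes 2 were higher, *Fabp5* (578 against 267 CPM), a fatty acid carrier, and *Lpl*. With cells weighted equally 1 of the 8 was higher, and without the highest doublet scores also 1. Of 16 cholesterol synthesis genes 2 were lower, among them *Nsdhl*, and of 12 interferon-stimulated genes 3 were lower, *Ifi27l2a*, *Xaf1* and *Rtp4*. Against the 70 cells 5 of 11 interferon-stimulated genes were lower and none higher, with a median log2 ratio of -0.94, and 4 of 12 were lower than in the other dermal T cells with cells weighted equally. The γ and δ segment list, partly fixed by the gate, had 5 of 6 higher.

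Receptors for neural signals were listed because the study concerned contact between such cells and nerve fibres. Of 28 genes 5 were measured, and none was over 2-fold apart from the other dermal T cells. *Ramp1*, which with *Calcrl* forms the receptor for the neuropeptide CGRP, was found in 82 members (80.4%) with 0 to 61 UMIs and a median of 5.5. It stood at 592 CPM (550 to 637) against 476 CPM in other dermal T cells, 136 in *Foxp3* cells and 32.01 in macrophages. In the 70 cells with *Trac* and no γ constant UMI it was found in 38.6% at 249.1 CPM, so that it was 2.38-fold higher in γδT cells (1.96 to 2.90). Other dermal T cells with a γ constant UMI stood above the members. *Ramp1* was at 780 CPM in 92.6% of the 27 with *Trac* and at 698 CPM in 92.9% of the 14 without. The members held 21.2% of its UMIs in the passing dermal cells. *Gabbr1*, a GABA receptor subunit, had 26 against 19 UMIs. *Actn2*, a cytoskeletal α-actinin, was found in 73.5% of members at 313 CPM and in 1.93% of macrophages, and the members held 47.8% of its UMIs. The other dermal T cells held 34.3%, with 229 CPM in 37.9% of cells, and the 27 of them with *Trac* and a γ constant UMI had 443 CPM in 77.8%.

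Against the *Foxp3* dermal T cells, 5.87% of 6079 genes were over 2-fold higher and 9.95% lower, around a median log2 ratio of -0.14. *Foxp3* is the factor of regulatory T cells. *Tcrg-C1* and *Tcrg-C2* had 379 and 117 UMIs in γδT cells and none in the 53 cells. *5830411N06Rik* was at least 33.5-fold and *Klrk1* at least 16.7-fold higher, against the 3 counts that 0 allows over the group, and *Cd163l1* was 121-fold higher with 1 UMI in *Foxp3* cells (interval 21.6 to 4810). *Tnfrsf4* was 110-fold (72.8 to 174), *Klrg1* 109-fold, *Cd5* 58.1-fold and *Cd28* 32.6-fold lower. *Igkc*, an immunoglobulin gene, had 1 against 52 UMIs. The costimulation list had 13 of 20 genes lower and 4 higher, and the effector list 10 of 20 higher and 4 lower, with among the higher genes *Il17a* with 1494 against 48.5 CPM. Fibroblast markers were lower in 3 of 6 cases and neutrophil markers in 2 of 5, while macrophage markers were higher in 2 of 9 and early response genes in 4 of 17. No gene of these lists passed 2-fold in the other direction. The part of such RNA in this comparison was not tested.

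Against the 464 epidermal γδT cells, tissue, sort and library cannot be told apart. Of 8211 genes 8.51% were over 2-fold higher and 25.2% lower in dermal cells, around a median log2 ratio of -0.46. The leading genes were those of the surrounding tissue. The fibroblast genes *Dcn*, *Lum* and *Col3a1*, and *Rarres2*, which encodes the chemoattractant chemerin, had 977, 155, 146 and 193 UMIs in dermal and 0 in epidermal cells, and *Saa3*, an acute phase gene, 2976 against 6. The keratinocyte genes *Krt14*, *Krt5*, *Krtdap* and *Lgals7*, and *Stfa3*, a protease inhibitor gene, had 0 to 2 UMIs in dermal and 1223 to 10884 in epidermal cells. Keratinocyte markers summed to 67.6 CPM in dermal and 11283 CPM in epidermal cells.

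T cell genes also stood apart between the tissues. *Il17a*, *Il17f* and *Il22* were at 1494, 3562 and 2318 CPM in dermal and 217, 379 and 319 CPM in epidermal cells, and found in 2.59%, 3.88% and 3.02% of the latter. With cells thinned to 1000 UMIs the epidermal shares were 1.58%, 2.97% and 2.28%, against 17.6%, 51.7% and 42.0% in dermal cells. Of 24 effectors 14 were higher and 5 lower in dermal cells, and *Xcl1*, a chemokine for dendritic cells, had 26.9 against 199 CPM. Of 14 killer and cytotoxic genes 11 were lower, with *Nkg7* at 167 against 2882, *Klrd1* at 62.7 against 698 and *Klrk1* at 116 against 589 CPM. *Gzmb* went the other way, at 626 against 132 CPM. Early response genes were higher in 14 of 17 cases, with *Hspa1a* at 6165 against 289 CPM, and the part of dissociation in these differences was not tested. *Trdv4*, a δ variable segment of fetal-wave γδT cells including those of epidermis, was seen in 18 dermal (17.6%) and 122 epidermal cells (26.3%), at 27.7 and 104 CPM, and with cells thinned to 1000 UMIs in 4.14% and 12.5%. The γ variable segments were too rare to sort the members, since *Trgv2*, the most frequent, was found in 10, *Tcrg-V6* in 1 and *Tcrg-V4* in 0 of 102 cells.

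The scavenger receptors divided the members. *Cd163l1* lies on chromosome 7 from 140218267 to 140231145 and *5830411N06Rik* (ENSMUSG00000054672) next to it from 140247284 to 140300736, both on the plus strand of GRCm38. 45 cells had more *Cd163l1* than *5830411N06Rik* UMIs and 39 had more *5830411N06Rik*. In 16 neither was found, in 2 the counts were equal, and in only 7 were both detected. Median depth was 9774 and 12017 UMIs on the *Cd163l1* and the *5830411N06Rik* side. The split uses these genes, so their own levels are no finding. Of 4458 genes with at least 20 UMIs over both sides, 6.01% were over 2-fold higher and 3.88% lower on the *Cd163l1* side, around a median log2 ratio of 0.12.

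**Figure D4:**
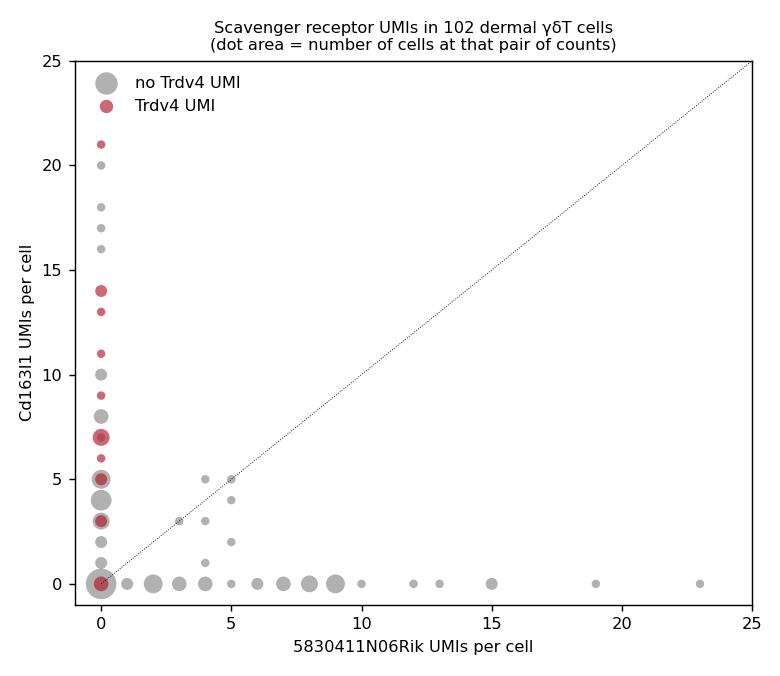
UMIs of *Cd163l1* against UMIs of *5830411N06Rik* in each of 102 dermal γδT cells, with dot area in proportion to the number of cells at that pair of counts and cells with a *Trdv4* UMI in red. Most cells lie on an axis, and no red dot has a *5830411N06Rik* UMI.

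Receptor genes differed between the sides. *Trdv4* had 24 UMIs in 15 of 45 cells on the *Cd163l1* side and 0 in the 39 cells of the other side, at least 8.97-fold higher against 3 counts, and 0 of 39 allows up to 7.69% of cells with a UMI, as 3 counts of 39. No cell had more than 3 *Trdv4* UMIs on the *Cd163l1* side, so this is no limit on cells that express the gene. The other 3 members with *Trdv4* had neither scavenger receptor. *Tcrg-C1* had 431 against 169 CPM, 2.55-fold higher (1.99 to 3.29), and *Tcrg-C4* was 2.09-fold higher (1.08 to 4.21), whereas *Tcrg-C2* had 115 against 88.1 CPM with an interval of the ratio from 0.874 to 1.95. *Trdc*, the gate gene, had 1977 against 557 CPM. *5830411N06Rik* was found in 9 of the 13 members at the *Trdc* threshold and in 6 of the 18 cells just outside it, against 5 and 5 for *Cd163l1*.

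*Il17a* and *Il22* leaned to opposite sides. *Il17a* was found in 24 of 45 cells on the *Cd163l1* side (53.3%), up to 739 UMIs, and in 12 of 39 on the other (30.8%), up to 200 UMIs. Its CPM was 3041 against 577, 5.27-fold higher (4.67 to 5.96), 6.67-fold higher without the richest cell of each side, and 10.6-fold with cells weighted equally. *Il22* was found in 68.9% and 76.9% of cells, with 1056 against 3546 CPM, so it was 3.36-fold higher on the *5830411N06Rik* side (3.05 to 3.70), 3.32-fold without the richest cells and 2.78-fold with cells weighted equally. *Il17f* differed less, at 4811 against 3235 CPM (1.49-fold, 1.40 to 1.58), and was found in 77.8% and 84.6% of cells. Thinned to 1000 UMIs, *Il17a* was found in 30.3% against 10.00% and *Il22* in 39.4% against 55.2% of cells. The ranges of single cells overlapped for each of these genes.

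Surface and signalling genes differed too. *Ccr6* was found in 20% of cells on the *Cd163l1* side and 71.8% on the other, 3.38-fold higher on the latter (2.02 to 5.94). *Cd9*, a tetraspanin, was 4.36-fold higher (2.61 to 7.70), *Id3*, an inhibitor of E proteins that shapes γδ fate, 5.85-fold (3.54 to 10.2) and *Il7r*, the IL-7 receptor, 1.76-fold higher (1.20 to 2.62) on that side. For *Id3*, 52 UMIs came from 1 cell, and it was 4.56-fold higher without the richest cells and 3.34-fold with cells weighted equally. *Klrk1* was 4.18-fold (2.58 to 7.03) and *Pdcd1* 2.88-fold higher (1.71 to 5.02) on the *Cd163l1* side. *Gzmb* and *Areg* were 5.10-fold and 5.23-fold higher there, but 378 of 546 and 118 of 168 UMIs came from 1 cell each. Without the richest cells they were 3.82-fold and 2.79-fold higher.

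Many genes were alike on both sides within counting error. *Actn2* had 349 against 345 CPM (interval of the ratio 0.818 to 1.25), *Ccr2* 254 against 221 (0.888 to 1.48), *Ltb* 268 against 245 (0.857 to 1.40), and *Maf* 169 against 122 (0.994 to 1.94). *Blk* was 1.53-fold (1.14 to 2.05) and *Cxcr6* 1.22-fold higher (1.03 to 1.44) on the *Cd163l1* side, and *Ramp1* 1.36-fold higher (1.16 to 1.59) on the other. *Sox13*, *Il1r1* and *Il23r* had 9 to 23 UMIs a side and intervals that included 1.

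The leading genes by rank on the *Cd163l1* side were *Cxcl3*, *Ube2c*, *H2-Q7*, *Il17a*, *Gzmb*, *Bcl2a1b*, *Bcl2a1d*, *H2-Eb1*, *Klrk1* and *H2-Ab1*. *Cxcl3*, a neutrophil chemokine, had 127 against 11 UMIs, *H2-Q7*, a nonclassical MHC gene, was 5.65-fold higher, and *Bcl2a1b*, a survival gene with near-identical copies, 4.97-fold. Of the MHC class II genes, which dendritic cells express, 1 cell held 182 of 315 *H2-Eb1* and 221 of 419 *H2-Ab1* UMIs, and without the richest cells these genes were 2.35-fold and 2.15-fold higher. *Cd74*, their invariant chain, was 3.60-fold higher, and 2.12-fold without the richest cells. Of 19 cell cycle genes 6 were higher and 0 lower on this side, where 6.01% of all genes were higher, but 57 of 94 *Ube2c* UMIs came from 1 cell. On the other side *Stfa2l1*, *Mmp2*, *Igfbp4*, *Gm5483*, *Ctsk*, *Dcn*, *Id3*, *Cd302*, *Igfbp7* and *Bgn* led, most of them fibroblast or myeloid genes. All 5 measured fibroblast markers were over 2-fold lower and all 4 measured dendritic cell markers higher on the *Cd163l1* side, and 3 of 4 neutrophil markers were lower there, with a median log2 ratio of -1.51. For *Dcn*, 128 of 336 UMIs on the other side came from 1 cell, and it was 6.38-fold lower on the *Cd163l1* side with all cells and 4.29-fold without the richest ones. It was found in 64.4% of cells on the *Cd163l1* side and 59.0% on the other. The part of this RNA in the other differences was not tested.

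**Figure D5:**
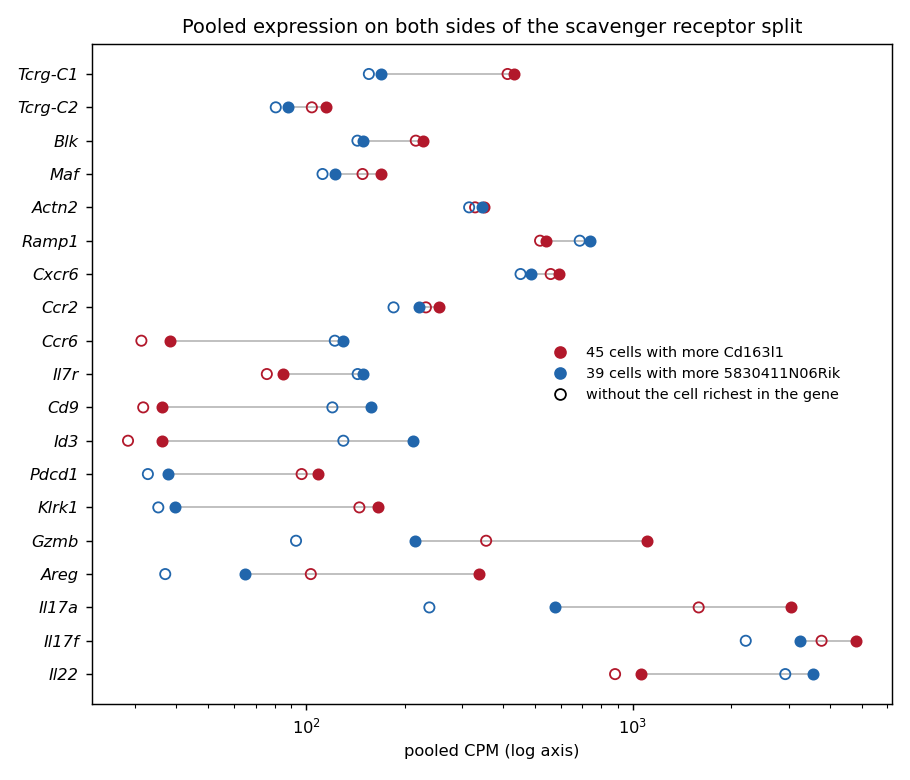
Pooled CPM (log axis) of 19 genes in the 45 dermal γδT cells with more *Cd163l1* (red) and the 39 with more *5830411N06Rik* (blue); open circles leave out the cell richest in that gene on each side. *Il17a* and *Il22* lie on opposite sides in both versions, and *Actn2* coincides.

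A UMI of *Mki67* or *Top2a*, which mark dividing cells, was found in 27 of 102 members (26.5%, interval 18.2 to 36.1%), against 28.0% of other dermal T cells, 26.4% of *Foxp3* cells, 19.6% of macrophages, 15.9% of epidermal γδT cells and 18.6% of the 70 cells with *Trac* and no γ constant UMI. Such cells were deeper, with a median of 15522 against 9743 UMIs, and deeper cells have more chance to show a rare UMI. Thinned to 1000 UMIs, the shares were 7.42%, 5.63%, 5.03%, 3.30%, 6.58% and 3.58% of these 6 groups in the same order, with 0, 4, 0, 20, 6 and 2 shallower cells left out. *Il17a* was found in 16 of the 27 (59.3%) at 2813 CPM and in 30.7% of the 75 others at 807 CPM. The cell with 739 *Il17a* UMIs was among the 27, and without the richest cell of each set *Il17a* stood at 1085 and 539 CPM. *Il17f* had 3600 and 3543 CPM (2338 and 2877 without the richest cells) and *Il22* 1969 and 2500 CPM (1663 and 2016). On the *Cd163l1* and *5830411N06Rik* sides, *Mki67* was found in 24.4% and 20.5% of cells and *Top2a* in 20% and 20.5%.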

How the data were processed

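Single-cell libraries (Chromium 3′ v3) of IMQ-treated dermis and epidermis were analysed. The authors deposited raw UMI counts per gene and called cell, without normalization (per the file headers and the submitters' processing notes: Cell Ranger 3.0.2, CASAVA, mm10); the annotation used is not given in the sources used here. Features and barcodes were used as deposited.

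Gates were applied in Python 3.11.15 (numpy 2.4.6, scipy 1.17.1, pandas 2.3.3). Members and gene lists were chosen with earlier results of these data known. UMIs were summed per group and scaled to CPM. Log2 ratios used 0.5 added UMIs and were taken where both groups together had 20 or more UMIs, and called means over 2-fold. Intervals were exact (Clopper-Pearson, Poisson, conditional) at 95%, covered counting error only, and the ratio step was tested on simulated data. Thinned shares are expected values at 1000 UMIs. Genes were named as the 10 highest and 10 lowest ratios (5 and 5 against *Foxp3*, epidermal and the 70 cells), with at least 50 UMIs and a UMI in 25% of the higher group's cells, leaving out gate, mitochondrial, ribosomal protein and receptor V, D and J segment genes. The 10 and 10 of the scavenger split and the further genes named there were chosen after values were seen. List examples were the most abundant and most different genes. Doublets were scored with Scrublet (scanpy 1.11.5) and kept. Alternatives covered gate limits, doublet scores, depth, UMI minimum, pseudocount, cell weighting and comparator. Some genes of the lists are not reported here by name.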

Additional observations from a re-analysis of the deposited data

How the results depend on the processing

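Over 20 alternative settings, 119 recomputed values stayed within the interval of the reported value, or for gene counts within 1.5 times, and 58 moved further. Of 18 ratios of the scavenger split 11 moved and all kept their side, with *Il17a* between 5.27-fold and 10.6-fold. *Il17a*, *Il17f* and *Il22* CPM moved as follows, in that order where 3 values are given. With *Trdc* at least 1 UMI, *Il17a* was 1312 and *Il17f* 3276. With at least 3 UMIs, *Il17f* was 3702 and *Il22* 2445. Without a C1q limit they were 1422, 3389 and 2207, with C1q under 5 per 10000 1610, 3800 and 2477, without the highest doublet scores 1882, 4224 and 2740.1, and without the richest cell 900.4, 3135 and 1999. Without an upper limit on genes, *Il17f* was 3335 and *Il22* 2122, and as mean of per-cell CPM 3102 and 1914. Shares of cells thinned to 1000 UMIs were 17.6%, 51.7% and 42.0%, and to 2000 UMIs 23.1%, 61.4% and 51.8%. Against other dermal T cells, counts of genes higher and lower (191 and 261) were 254 and 241, and so in the other order, without an upper limit on genes, 148 and 391 without the highest doublet scores, 395 and 471 with mean per-cell CPM, 433 and 534 with 10 UMIs, 42 and 71 with 50 UMIs, and 355 and 400 against cells with *Trac* and no γ constant UMI. Against *Foxp3* cells (357 and 605) they were 653 and 1065 with 10 UMIs, and 135 and 228 with 50. Against epidermal cells (699 and 2069) they were 400 and 1124 with 50 UMIs. A UMI minimum changes how many genes are measured; the cause of the other shifts was not tested. The comparator without γ constant UMIs, epidermal cells of at most 10000 UMIs, and the variants of the scavenger split and of the cells with an *Mki67* or *Top2a* UMI were chosen after seeing the data. The split by γ variable segments could give no value. No paired analysis was possible because only 1 library represents a tissue. Depth limits rare genes such as *Sox13* and the γ segments.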
